A study of Mus musculus with 2 samples.

Results

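The genes described here are 10 markers of the joint surface, of the interzone and of the synovial lining, namely *Prg4*, *Gdf5*, *Erg*, *Creb5*, *Cilp*, *Clu*, *Tnc*, *Abi3bp*, *Vit* and *Vcam1*. They were taken from a list of known markers, and all 21 probe sets annotated to 1 of them alone were used, out of 18193 genes named on the array. A probe set is several short probes that together measure the end of a transcript. Superficial zone (SFZ) cells came from articular cartilage, with the joint not named in the labels, and costal chondrocytes (CC) were released from ribs with collagenase. Both were prepared from ICR pups of postnatal day 4 and grown in DMEM with 10% FBS, and the labels name no transgene or treatment. Total RNA of each was hybridized to 1 Affymetrix whole-genome mouse expression array, and the labels do not say how many animals were pooled. With 1 array per cell type no test was possible, no p-value is given, and every difference describes these arrays.

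Synovial joints form where an interzone of flattened *Gdf5*-positive cells interrupts the cartilage of the limb. Descendants of these cells build the articular cartilage, and those at its surface later secrete lubricin, the product of *Prg4*, which lowers friction between the joint surfaces. Most costal chondrocytes lie in permanent or growing cartilage away from a joint surface, though the paper does not say which part of the rib was used. The comparison asks how far the markers of the joint surface set SFZ cells apart from other cartilage cells.

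Of the 10 members, *Prg4* was higher in SFZ cells and *Vcam1* was higher in CC, by a signal over 100 in the higher cell type and a ratio over 2. Of the 18193 genes, 1.18% passed in SFZ cells and 5.41% passed in CC by the same rule. The others did not pass on the probe set that stands for them, which is the one with the highest mean log2 signal. With any probe set of a gene allowed to pass, *Prg4* alone passed in SFZ cells and *Clu* joined *Vcam1* in CC, while 1.37% of all genes passed in SFZ cells and 6.17% in CC. *Cilp* was under background on both arrays, and 9 members were above it on at least 1 array. Among these 9, the ratio of SFZ cells over CC was over 1 for 7 members and under 1 for *Clu* and *Vcam1*, while it was over 1 for 33.4% of the 12481 genes above background. Their median log2 ratio was 0.33, against -0.18 for all genes above background. The range within the members was wide, from -3.31 for *Vcam1* to 2.14 for *Prg4*. For the other gene lists below, a count of none in SFZ cells is near the share of 1.18% over all genes.

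**Figure D1:**
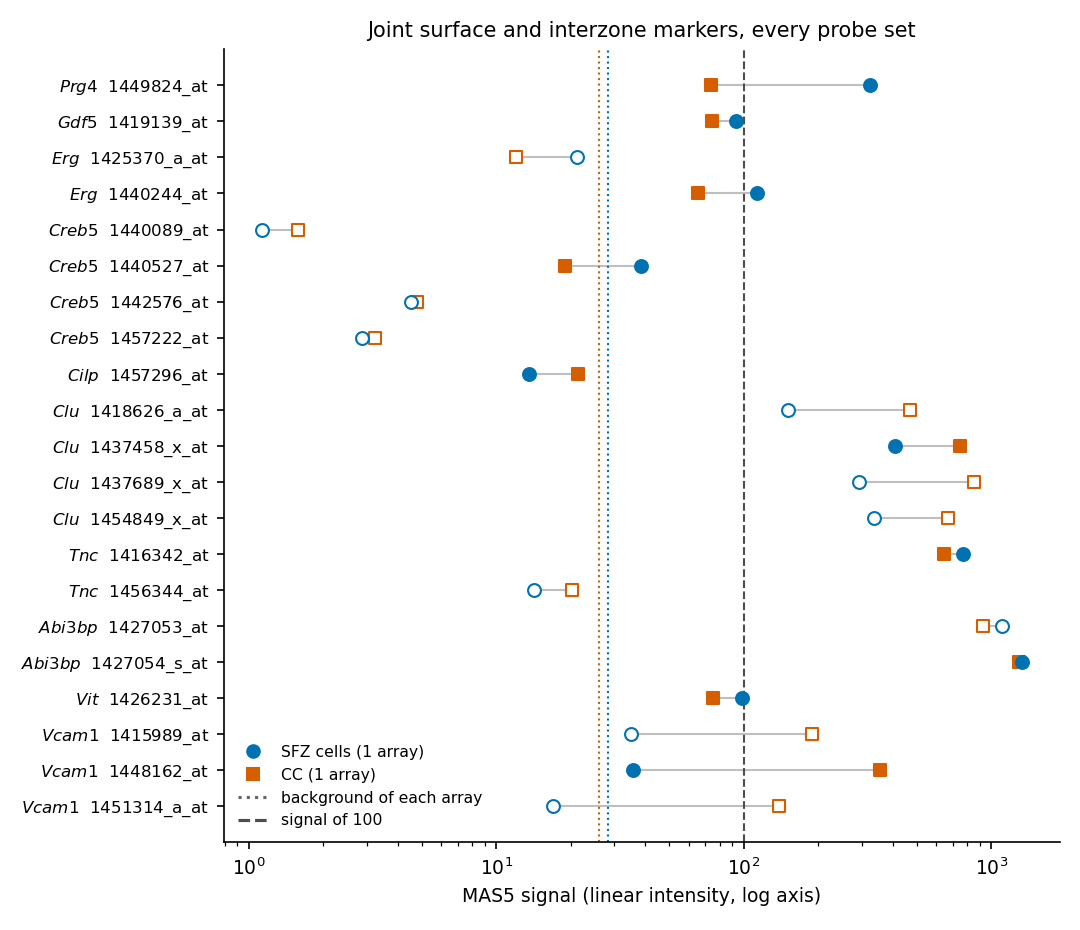
MAS5 signals (log axis) of the 21 probe sets of the members on the SFZ array (circles) and the CC array (squares), filled where the probe set stands for the gene. Dotted lines mark the backgrounds of 28.2 and 26.0 and the dashed line a signal of 100. The pairs of *Prg4* and *Vcam1* are wide apart in opposite directions, and 6 probe sets of *Erg*, *Creb5*, *Cilp* and *Tnc* lie left of both dotted lines.

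The background was the 95th percentile of 87 probe sets for chemosensory receptors, which cartilage cells are not known to express, and it came to 28.2 for SFZ cells and to 26.0 for CC. The median signal of all probe sets was 28.1 and 32.0. Of 16 chondrocyte genes, 16 were above background in SFZ cells and 15 in CC, where *Chad* was not, and their summed signal was 93550 in SFZ cells against 68792 in CC. Of the 16, 4 passed in SFZ cells and none in CC, against 1.18% and 5.41% of all genes. Their median log2 ratio was 0.40, so that general cartilage genes leaned to SFZ cells about as much as the members, at 0.33. The chondrocyte genes do not tell superficial zone from other cartilage, and *Matn1*, a matrilin of non-articular cartilage, was 3.71-fold and *Col10a1*, a collagen of hypertrophic chondrocytes, 9.97-fold higher in SFZ cells. Of 6 hypertrophic chondrocyte genes with a probe set of their own, *Col10a1* alone passed in SFZ cells and 2 passed in CC. These were *Mmp13*, at 239 in SFZ cells against 3784 in CC, and *Ibsp*, at 375 in CC and under background in SFZ cells. The CC array also held markers of other cells. The 11 skeletal muscle genes found above background were all higher there by the rule, as were the 5 adipocyte genes with a probe set of their own. So were 6 of 12 fibroblast genes and 4 of 8 macrophage genes above background. None of these lists had a gene that passed in SFZ cells. How much of any member's signal came from such cells was not tested. In bulk RNA, fewer cells that express a gene and less RNA of it per cell cannot be told apart.

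The only internal gauge of error is how well separate probe sets of 1 gene agree. In 5037 genes that had 2 or more such probe sets measured above background by each array, the pooled SD of the log2 ratio within a gene was 0.39 at mean signals under 100, 0.30 from 100 to 1000 and 0.18 above. This spread holds differences in probe design and between transcripts, and leaves out the spread between cultures and between arrays.

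Upstream sequence was at hand for 4 members, *Tnc*, *Creb5*, *Cilp* and *Erg*, in a RefSeq table of build GRCm38.p6. The stretches below are shown because they hold the 2 motifs searched, which were chosen after the sequences were seen, a full cAMP response element (TGACGTCA), the site recognized by the CREB family to which *Creb5* belongs, and a TATA box core (TATAA). Capitals mark the motif, and the letters run 5′ to 3′ on the strand of the gene.
*Creb5*, chr6:53287223-53287302, plus strand, from 80 bases to 1 base before the first of 2 annotated starts: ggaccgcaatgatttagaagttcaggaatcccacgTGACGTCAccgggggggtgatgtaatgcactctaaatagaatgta
*Cilp*, chr9:65265100-65265179, plus strand, from 80 bases to 1 base before the start: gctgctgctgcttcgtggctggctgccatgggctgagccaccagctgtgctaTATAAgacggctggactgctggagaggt
*Tnc*, chr4:64046947-64046976, minus strand, from 40 to 11 bases before the second of 2 annotated starts: aaggagctccctaTATAAgcctgccaaagc
The response element of *Creb5* began 45 bases before that start. Among 32536 distinct windows of 250 bases upstream of annotated starts, 1.56% held it on either strand, and it reads the same on both. The TATA core began 28 bases before the start of *Cilp* and 27 bases before that of *Tnc*, and 22.7% of windows held this core anywhere in them on either strand. The share of windows with either motif at these distances was not counted. Of the 8 windows of these members, no other held the response element, while the TATA core was also found at 1 further site of *Tnc*, which lies in the overlapping windows of both starts, and on the opposite strand in 1 of the 3 *Erg* windows. The matches describe the letters of the windows alone. The signals of the genes were of different kinds, with *Cilp* under background, *Creb5* near it and *Tnc* far above it in both cell types.

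Among the secreted products of the joint surface, *Prg4* had the largest ratio of the members toward SFZ cells. On its probe set (1449824_at), SFZ cells gave a signal of 323 and CC one of 73.6. The SFZ signal was 11.5 times the background and the CC signal 2.83 times, so that both were measured and the ratio of 4.39 is no bound. Of the 12481 genes above background 41 had a higher ratio with signals raised to background. The log2 ratio of 2.14 was far larger than the spread of 0.30 between probe sets of a gene at such signals.

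*Gdf5*, a BMP family ligand of the interzone, did not differ like *Prg4* on these arrays. On its only probe set (1419139_at) the signal was 93.1 in SFZ cells against 74.2 in CC. With an SFZ signal under 100, *Gdf5* could not pass in SFZ cells at any ratio. Its log2 ratio of 0.33 was smaller than the 0.39 between probe sets of a gene at signals under 100, and 1707 genes had a higher ratio. Both signals were about equally far above background, by 3.30 times in SFZ cells and 2.86 times in CC. By RT-qPCR, which is a different measure, the authors reported high *Gdf5* and *Prg4* in SFZ cells and very little of either in CC. From database ATAC-seq data of other samples, they also described open chromatin around *Gdf5* in articular but not in costal chondrocytes.

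Most receptors and targets of GDF5 were above background in both cell types. *Bmpr1b*, the type I receptor that GDF5 binds best, was at 64.2 in SFZ cells against 71.5 in CC, and the type II receptor *Bmpr2* was at 909 and 1172. Of 21 genes of this pathway 19 had a probe set of their own, and 18 of these were above background on at least 1 array. None passed in SFZ cells and 5 passed in CC, against 1.18% and 5.41% of all genes. These 5 were the secreted antagonists *Grem1*, at 138 and 722, and *Fst*, at 194 and 518, the inhibitory SMAD gene *Smad6*, at 176 and 463, and the BMP target genes *Id1*, at 446 and 959, and *Id3*, at 650 and 1551. The median log2 ratio of this list was -0.42. *Nog*, the BMP antagonist needed for joint formation, was at 44.0 in CC and under background in SFZ cells, at 20.2.

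*Clu* encodes clusterin, an extracellular chaperone that is abundant at the cartilage surface, and it was the member measured by the most probe sets above background. They had signals of 150, 408, 291 and 336 in SFZ cells and of 471, 749, 848 and 667 in CC, in the same order. Every probe set was thus higher in CC, by 3.13-fold, 1.84-fold, 2.91-fold and 1.99-fold. Of these ratios 2 passed and the rest fell short of 2. The mean log2 ratio was -1.26 ± 0.39 (SD over 4 probe sets), so that the direction held over all probe sets while the size did not. Of these probe sets 3 are of a kind that can bind related transcripts (names ending in _x_at), and the remaining one (1418626_a_at) gave the 3.13-fold.

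*Cilp*, the cartilage intermediate layer protein, could not be compared. Its probe set (1457296_at) was at 13.6 in SFZ cells against 21.4 in CC, under background on both arrays, and no ratio is given. *Cilp2*, its paralog, was also under background on both. At these signals neither gene was detectable, which does not show that it was absent.

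*Tnc*, *Abi3bp* and *Vit* are matrix genes of the joint surface and its surroundings, and none of them differed by a ratio of 2. *Tnc* encodes tenascin-C, a matrix protein of the joint surface, perichondrium and tendon. Its signal was 770.5 in SFZ cells against 642 in CC on 1416342_at, and its other probe set was under background on both arrays. *Abi3bp*, which encodes an extracellular matrix protein, had signals of 1106 and 925 on one probe set and of 1326 and 1296 on the other, which are ratios of 1.20 and 1.02. *Vit* encodes vitrin, a matrix protein with von Willebrand A domains, and its signals of 98.1 in SFZ cells against 75.3 in CC gave a ratio of 1.30. The log2 ratios on the probe sets that stand for these genes ran from 0.03 to 0.38. That of *Vit* was within the spread between probe sets at its signal, and so was that of *Tnc*.

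Of 12 relatives of the matrix members, such as tenascins and thrombospondins, 11 had a probe set of their own. Of these, 8 were above background, none passed in SFZ cells and 2 passed in CC. *Thbs2*, which encodes thrombospondin-2 of connective tissue, was at 334 in SFZ cells against 1658 in CC, and *Matn4*, a matrilin, was at 261 and 900. *Coch*, a relative of vitrin, was at 62.1 in SFZ cells and under background in CC, at least 2.39-fold higher, but its signal did not reach 100. The tenascin genes *Tnr*, *Tnn* and *Tnxb* were under background in SFZ cells. *Tnr* was so in CC too, while *Tnn* was at 29.9 and *Tnxb* at 36.7 there.

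Among the transcription factors, *Erg* came nearest to passing. *Erg* encodes an ETS factor that marks the interzone and keeps articular chondrocytes from maturing, and it is also expressed in endothelium. On 1440244_at SFZ cells had a signal of 113 against 65.2 in CC, for a ratio of 1.73. The log2 ratio of 0.79 was about 2 times the spread of 0.39 between probe sets of a gene at signals under 100, and 463 genes had a higher ratio. The other probe set (1425370_a_at) was under background on both arrays and does not bear on it. After quantile normalization the log2 ratio was 1.08 and *Erg* passed.

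Of 10 endothelial markers 2 were above background in SFZ cells and 8 in CC, and none passed in either direction, with a summed signal of 187 in SFZ cells against 393 in CC. *Pecam1* was at 3.02 and 26.4 and *Cdh5* at 13.5 and 46.8, both under background in SFZ cells, and *Tek* and *Tie1* were under it on both arrays. The part of such cells in the signal of *Erg* was not tested. *Fli1*, the closest relative of *Erg* among the 14 ETS factors listed, had a signal of 120 in CC, 2.14-fold higher than in SFZ cells, and passed there. Of the 14, 12 had a probe set of their own and 10 of these were above background. *Fli1* was the only one of the 10 that passed, and *Ets2*, at 1204 and 760, did not.

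*Creb5* encodes a bZIP factor of the CREB and ATF2 family that is needed for *Prg4* expression in articular chondrocytes. It was above background on 1 of its 4 probe sets and on the SFZ array only. On that probe set (1440527_at) the SFZ signal of 38.4 was at least 1.48-fold higher than that of CC, where 19.0 was measured. The other probe sets had signals from 1.13 to 4.79 over both arrays. None of its 8 relatives above background passed in either direction, with *Atf2* at 637 in SFZ cells against 700 in CC and *Creb1* at 357 and 414. Of all genes, 1.18% passed in SFZ cells and 5.41% in CC, so that none of 8 is near these shares.

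Genes of pathways known to raise *Prg4* were compared as well. The list held 16 genes for TGF-β receptors and ligands, SMADs, FoxO and NFAT factors, EGFR signaling and *Creb1*. Of these, 15 had a probe set of their own and all 15 were above background. None passed in SFZ cells, which is near the share of 1.18% over all genes. *Egfr*, at 172 in SFZ cells against 491 in CC, and *Tgfb2*, at 517 and 1075, passed in CC, where 5.41% of all genes passed. The median log2 ratio of the 15 genes was -0.21, close to the -0.18 of all genes. *Foxo1*, a factor that sustains lubricin in the superficial zone, was at 218 and 254, and the receptor gene *Tgfbr2* was at 2375 and 3206.

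**Figure D2:**
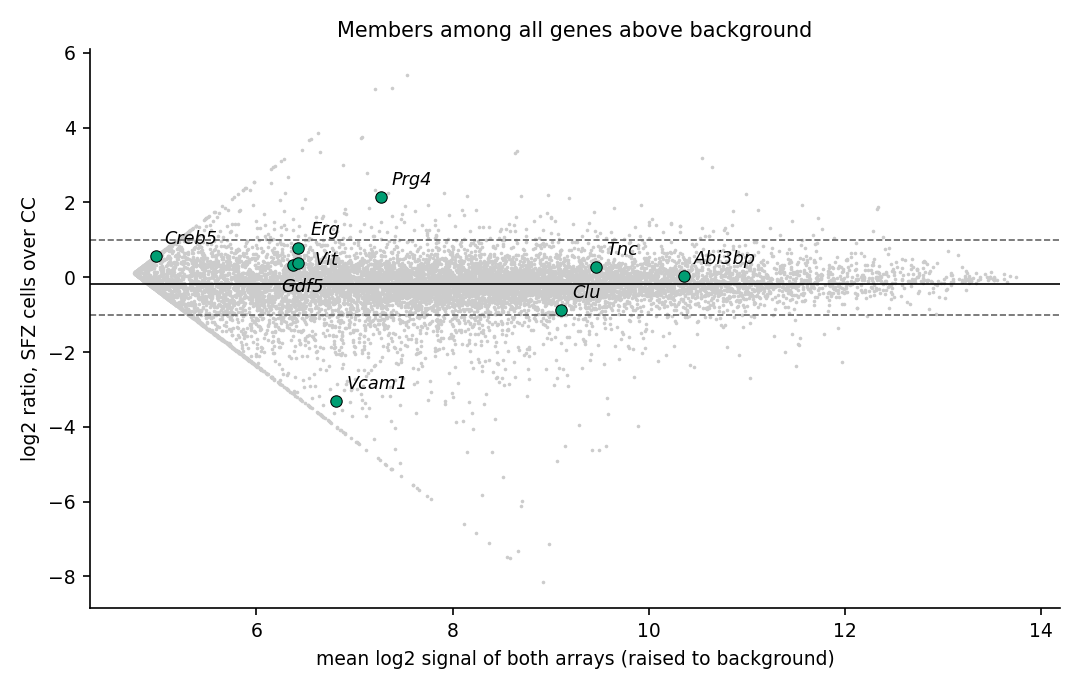
Log2 ratio of SFZ cells over CC against the mean log2 signal of both arrays, with signals raised to background, for 12481 genes (grey) and the 9 members above background (green). The solid line is the median of all genes, -0.18, and dashes show where one cell type is 2 times the other. *Prg4* lies above the upper dashed line, *Vcam1* below the lower one and the other members between them, and the value of *Creb5* is a lower bound.

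*Vcam1*, an adhesion molecule of synovial lining fibroblasts, activated endothelium and myoblasts, had the largest ratio toward CC. Its 3 probe sets had signals of 35.0, 35.7 and 17.0 in SFZ cells and of 189, 354 and 139 in CC, in the same order. All 3 passed in CC. The ratios of CC over SFZ cells were 5.40 and 9.91 on the first 2 (1415989_at and 1448162_at), and on the third (1451314_a_at), where the SFZ signal was under background, *Vcam1* was at least 4.94-fold higher in CC. Even on the first 2 the SFZ signals were only 1.24 and 1.27 times the background. With signals raised to background, 97 of the genes above background had a lower ratio than *Vcam1*. Its log2 ratio was -2.07 in place of -3.31 with 64 added to both signals.

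A list of adhesion, chemokine, cytokine and NF-κB pathway genes, many of which inflammatory cytokines induce, leaned to CC as well. Of its 14 genes 11 were above background, 6 passed in CC and none passed in SFZ cells. The median log2 ratio of the 11 was -1.27. Those that passed were the chemokine genes *Cxcl12*, at 159 in SFZ cells against 3600 in CC, *Ccl2*, at 40.4 and 453, *Ccl7*, at 55.8 and 224, and *Cxcl1*, at 179 and 397, the inhibitor gene *Nfkbia*, at 422 and 1020, and *Il6*. The CC signal of *Il6* was 199, at least 7.06-fold higher, with SFZ cells under background. *Icam1*, another adhesion molecule of this group, was at 358 and 247 and did not pass, and *Sele*, an adhesion molecule of activated endothelium, was under background on both arrays.

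Markers of several cells that can express *Vcam1* were higher on the CC array too. The summed signal of 13 skeletal muscle genes was 309 in SFZ cells against 32764 in CC, and 11 of them passed in CC. Among these were the myogenic factors *Myod1*, at 13.7 and 457, and *Myog*, at 14.7 and 2721, both under background in SFZ cells, while *Myf5* and *Pax7*, genes of satellite cells and early myoblasts, did not reach background on either array. That of 10 macrophage genes was 461 and 2105, with *Ptprc* at 18.1 and 29.8 and *Csf1r* at 55.6 and 127. That of 12 fibroblast genes was 26806 and 39203, with *Thy1* at 46.3 and 366 and *Pdgfra* at 91.0 and 911. The fibroblast list was mixed, and 6 of its 12 genes did not pass. Among these, *Col1a2* was at 8677 and 8919 and *Dcn*, higher in SFZ cells, at 5649 and 5289. The part of muscle cells, macrophages and fibroblasts in the signal of *Vcam1* was not tested.

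The integrins that bind VCAM-1 or tenascin-C differed less. Of 10 subunits 7 were above background, and *Itga7*, a laminin receptor of muscle, was the only one that passed, at 31.6 in SFZ cells against 190 in CC. *Itga4*, the main partner of VCAM-1, was under background in SFZ cells, at 17.8, and at 60.2 in CC. *Itgb1*, the common β subunit, was at 1774 and 1909, and *Itgav*, which binds tenascin-C, was at 2030 and 2636.

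A longer list of 24 other genes of the superficial zone, the interzone and the synovial lining leaned to CC. Of these, 23 had a probe set of their own and 18 were above background. In CC 7 passed, only *Sulf1* passed in SFZ cells, and the median log2 ratio was -0.89. *Sulf1*, which trims sulfate groups from heparan sulfate, was at 583 in SFZ cells against 239 in CC. In CC, *Sfrp2*, a secreted Wnt modulator, was at 2383 against 42.0, *Cytl1*, a cytokine-like product of chondrocytes, at 1699 against 67.0, *Dpt*, which encodes dermatopontin, at 318 against 46.3, and *Dkk3* at 348 against 55.6. *Pdpn*, a marker of lining fibroblasts, was at 387 in SFZ cells against 782 in CC, and *Cd55*, another one, was at 42.3 in SFZ cells and under background in CC. *Wnt9a*, a signal of the interzone, was under background in SFZ cells and at 67.5 in CC. The fibroblast markers described above had a similar median log2 ratio of -0.92, and their part in this list was not tested.

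**Figure D3:**
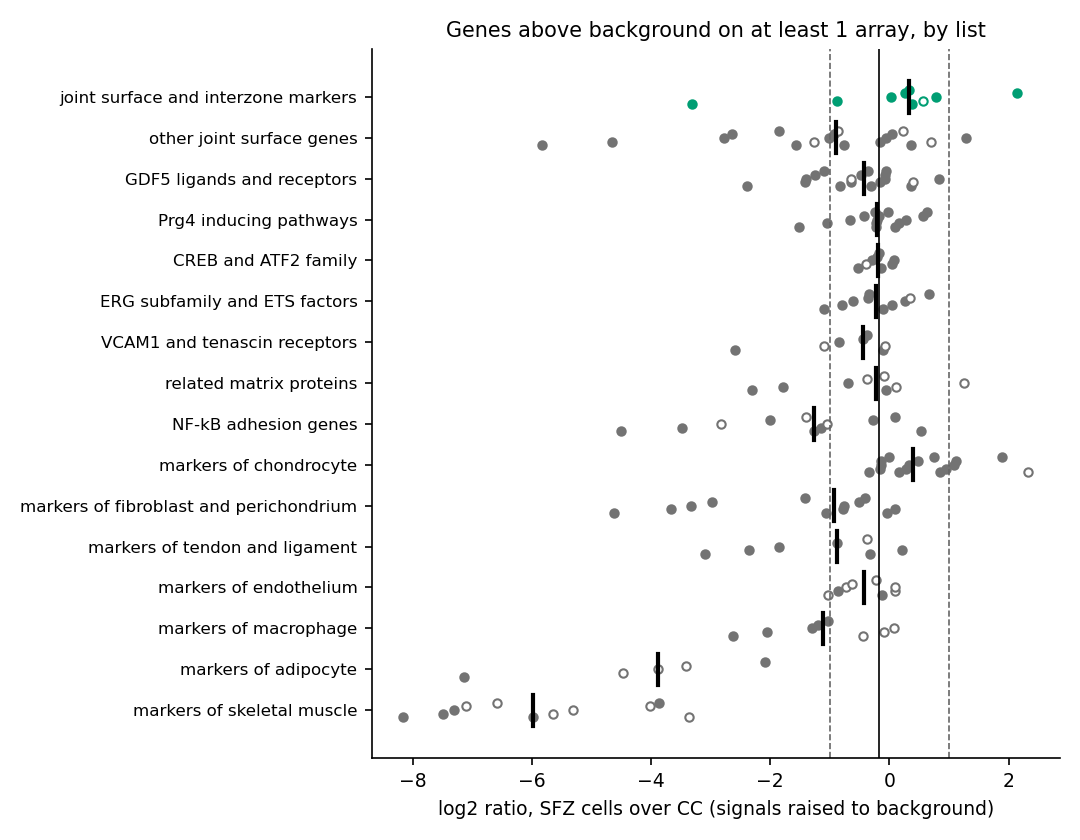
Log2 ratio of SFZ cells over CC, with signals raised to background, for each gene above background on at least 1 array, by list. Open points are bounds, thick bars are medians, the solid line is the median of all genes and dashes show 2 times in favor of either cell type. The median of the members was 0.33, that of the other joint surface genes -0.89, that of the NF-κB adhesion genes -1.27 and that of the chondrocyte markers 0.40.

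The direction of most members did not hang on the scaling of the arrays. Scaling to equal medians moved the median log2 ratio of all genes from -0.18 to 0.01, and quantile normalization moved it to 0.05. The median of the members was then 0.51 and 0.63. Under 7 other settings the log2 ratio kept its sign for *Prg4*, *Gdf5*, *Erg*, *Clu*, *Abi3bp*, *Vit* and *Vcam1*. Part of this was fixed by construction. Adding 64 to both signals cannot turn a sign, and scaling to equal medians raised every log2 ratio and so could turn only a negative one. Rules for choosing probe sets cannot change *Prg4*, *Gdf5* or *Vit*, which have 1 each. It ran from 1.49 to 2.41 for *Prg4* and from 0.18 to 0.63 for *Gdf5*. That of *Creb5* and *Tnc* turned where the median or the dimmest of their probe sets was taken, which lets probe sets under background stand for the gene.

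**Figure D4:**
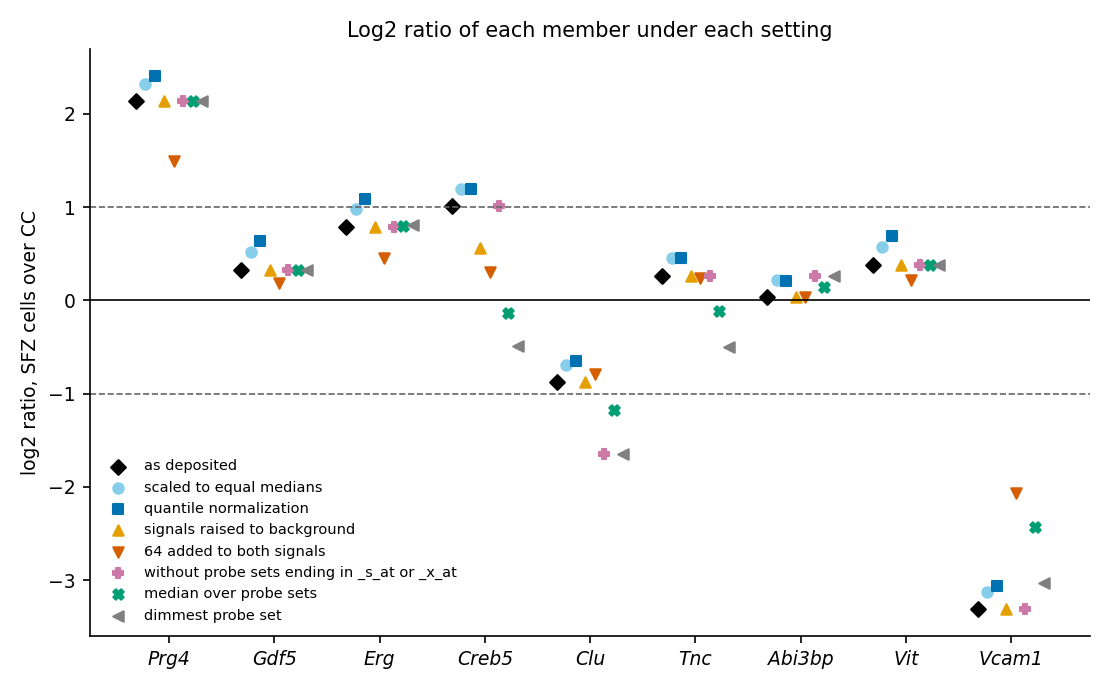
Log2 ratio of SFZ cells over CC for the 9 members above background, with the signals as deposited and under 7 other settings, and dashed lines at a ratio of 2 in either direction. *Prg4* stays above 1 and *Vcam1* below -1 in all of them, *Clu* crosses -1 where other probe sets are used, and *Erg* crosses 1 after quantile normalization. The deposited value of *Creb5*, 1.01, lies just over 1 with a CC signal under background and an SFZ signal under 100.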

How the data were processed

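Each cell type was hybridized to 1 Affymetrix mouse array from 100 ng of total RNA. The authors deposited MAS5 signals, linear intensities per probe set, and the sources used here give no scaling target, version or detection call. They were used as deposited. The 64 control probe sets were left out. Genes were named from the platform annotation, which gave 34945 probe sets with 1 symbol, and no gene was named from the 932 with several or the 9211 unnamed ones. No symbol needed a change against RefSeq through Entrez identifiers. The array names no genome build, so coordinates are given for the RefSeq promoter sequences only, and members without an entry there (*Prg4*, *Gdf5*, *Clu*, *Abi3bp*, *Vit* and *Vcam1*) have none.

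Of several probe sets of a gene, the one brightest on average over both arrays (log2) was used. A gene passed with a signal over 100 and a ratio over 2. Where one signal was at or under background the ratio was a bound against it, and where both were none was given. Medians used signals raised to background. The members, lists, thresholds and alternatives were chosen with earlier results of these data known. The text names every member, up to 4 passing genes of each other list, taken by size of ratio, and defining genes of a list. Other genes of the lists were added after their values were seen. The calls and scalings were tested on simulated data with changes planted in bright genes only. That test does not cover signals as low as those of most members, *Prg4* and *Vcam1* among them. Precision is limited by the number of arrays. Python 3.11.15, numpy 2.4.6, pandas 2.3.3 and matplotlib 3.10.9 were used.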

Additional observations from a re-analysis of the deposited data

How the results depend on the processing

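The count of 1 member higher in SFZ cells, *Prg4*, became 2 with *Erg* after quantile normalization and at a ratio over 1.5. The count of 1 member higher in CC, *Vcam1*, became 2 with *Clu* at a ratio over 1.5, without probe sets ending in _s_at or _x_at, with the median over probe sets, with the dimmest probe set, and where any probe set could pass. Lower and higher minimum signals of 50 and 200, a ratio over 3, raising signals to background, adding 64 to both, scaling to equal medians and asking every probe set to pass left both counts at 1. Fewer probe sets, other thresholds and other rules for combining probe sets change counts by construction, and for quantile normalization the cause was not tested. The median log2 ratio of the members stayed over 0 under every alternative run, from 0.22 to 0.63. Of 63 ratios of single members under an alternative, 54 were within 1.5 times the main ratio. This is not a limit on the log2 ratio or its sign, and that of *Tnc* turned from 0.26 to -0.12 within it. Many of the 54 equal the main ratio by construction, as where a gene has 1 probe set or where signals already above background are raised to it. The background at the 90th and 99th percentile was 24.3 and 30.9 on the SFZ array and 22.4 and 34.4 on the CC array, and 9 members were above it in both cases. No paired analysis was possible because each cell type has 1 array and no test was run. Signals near background, those of *Creb5*, *Cilp* and of *Vcam1* in SFZ cells, limit what their ratios can show.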

Other observations

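In the plane of both log2 signals, which has only 2 arrays as axes, the 3 genes nearest to *Prg4* were *Ppp1r16b*, at 335 in SFZ cells and 74.0 in CC, *Dlg2*, at 354 and 74.1, and *Ero1b*, an oxidase of the endoplasmic reticulum, at 331 and 65.8. Their distances ran from 0.052 to 0.16 on the log2 scale, and *Prg4* itself was at 323 and 73.6. Those nearest to *Vcam1* were *Hspb2*, a small heat shock protein gene of muscle, at 35.6 and 365, *Asb5* at 34.3 and 401, and *Il1rn*, which encodes the interleukin-1 receptor antagonist, at 31.3 and 337. Over 2 arrays such likeness says only that the signals are close.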
